A study of Arabidopsis thaliana with 4 samples.

Results

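The iron deficiency regulators described here are 10 Arabidopsis thaliana genes chosen by locus: the transcription factor genes BHLH38 (AT3G56970), BHLH39 (AT3G56980), BHLH100 (AT2G41240), BHLH101 (AT5G04150), PYE (AT3G47640) and ILR3 (AT5G54680), the ubiquitin ligase gene BTS (AT3G18290), the peptide genes IMA1 (AT1G47400) and IMA3 (AT2G30766), and the transporter gene OPT3 (AT4G16370). All 10 loci had a row among the 23174 genes with values, and none was missing. RNA came from whole seedlings of wild type and of atino80-5, which carries a mutant allele of INO80, a gene for the motor subunit of a nucleosome remodelling complex. Seedlings of both genotypes grew on plates of MS medium for 14 days, in 16 h of light and 8 h of dark at 22 °C. Each genotype had 2 libraries of stranded, polyA-selected RNA-seq, and the labels do not say whether separate cultures were used. The p-values therefore measure only how these libraries vary, and that variation may be technical. The labels name the allele but not its lesion, the background accession or any complemented line.

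Plants short of iron switch on uptake in the root and redistribution in the shoot through a cascade of bHLH transcription factors. ILR3 and its group IVc relatives activate the group Ib genes BHLH38, BHLH39, BHLH100 and BHLH101 and the gene PYE. The group Ib proteins pair with FIT in the root to activate the ferric reductase gene FRO2 and the iron transporter gene IRT1, while PYE represses genes such as NAS4 and FRO3. BTS marks ILR3 and its relatives for destruction, IMA peptides counter BTS and its relatives, and OPT3 loads iron into the phloem, from which the state of the shoot is signalled to the root. RNA of several iron deficiency regulators, among them the group Ib genes, PYE, BTS, IMA1 and IMA3, is known to be higher when iron is short. That list is not complete and does not set OPT3 apart.

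Of the 10 regulators, 8 fell in atino80-5, none rose and 2, ILR3 and OPT3, did not pass the test. The group Ib genes kept between 9.99% and 20.8% of their wild-type level, IMA3 kept 15.3% and IMA1 26.9%, and BTS and PYE kept 46.8% and 48.4%. Across the genome 955 of 17642 tested genes were called (5.41%), 427 of them lower (2.42%) and 528 higher (2.99%), by limma on log2(FPKM + 1) with a Benjamini-Hochberg adjusted p under 0.05. The median log2 difference was -1.69 over the 10 regulators, all of which reached the minimum level of 1 FPKM, and 0.03 over all tested genes. FPKM are reads per kilobase of gene, deposited per library by the authors and scaled between libraries by size factors, not by total reads.

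**Figure D1:**
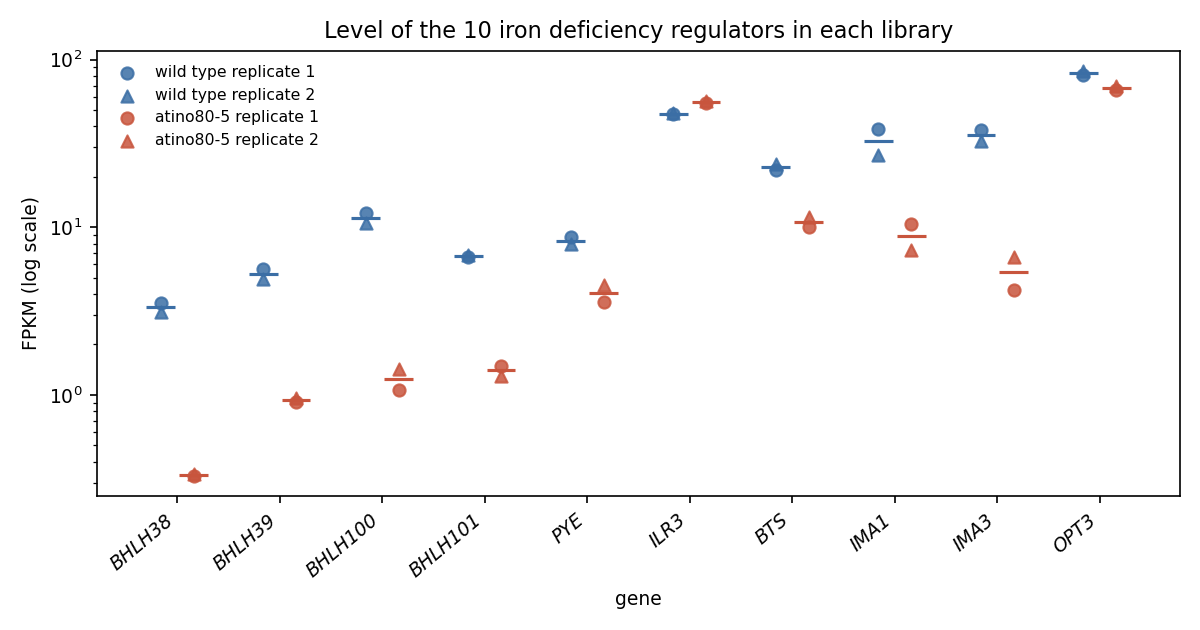
FPKM on a log axis for each regulator, with each library as a point and the mean of the 2 libraries of a genotype as a bar. The atino80-5 points lie below the wild-type points for 9 genes, and above them for ILR3. Over all tested genes these orders were seen in 28.8% and 33.4%.

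The libraries held between 13068214 and 18406709 reads, recovered from the deposited values. RNA of INO80 itself was present in both genotypes, at 4.28 and 4.54 FPKM in wild type, against 2.72 and 3.13 in atino80-5. That difference did not pass (limma adjusted p = 0.117), and gene totals carry no position of the reads along INO80. In whole seedlings, fewer cells of a type and less RNA per cell cannot be told apart. Of 12 root markers 10 were tested and none was called by limma, which called 5.41% of all tested genes. At that share a list this short may hold no call. The summed level of the root markers without the abundant PYK10 was 125 and 132 FPKM in wild type, against 118 and 109 in atino80-5. PYK10, a beta-glucosidase of the root, stood at 323 and 372 FPKM in wild type, against 500.1 and 601 in atino80-5 (limma adjusted p = 0.129), and the authors' deposited table gave it as higher. Without PYK10 the sums did not overlap either, and were lower in the mutant. MYB36, SCR and PIN2, 3 of the 12 root markers, had both mutant libraries below both wild-type libraries, an order seen in 28.8% of tested genes. Their wild-type means were 2.04, 1.39 and 1.29 times those of the mutant, with limma adjusted p-values of 0.0959, 0.152 and 0.235. PYK10 had the reverse order, seen in 33.4% of tested genes. The other root markers overlapped, among them EXPA7 (means of 6.42 and 6.46 FPKM in wild type and atino80-5) and CASP2 (16.5 and 16.6 FPKM). None of the 6 phloem markers was called, too short a list to tell from the share of 5.41% over all tested genes. Their summed level was 225 and 234 FPKM in wild type, against 219 and 231 in atino80-5, so the groups overlapped. No marker of either list was at 0 in a library. Their part in the results below was not tested.

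The group Ib genes lie directly above iron uptake. BHLH38 had 3.55 and 3.11 FPKM in wild type, against 0.329 and 0.337 in atino80-5, from 55, 65, 4 and 5 reads. It was the lowest of the 10 in every library, and its mutant libraries sat far below its wild-type libraries. The ratio of scaled reads was 9.90 with an exact 95% counting interval of 5.04 to 22.2. Such intervals cover counting error only. On the scale of the test BHLH38 fell by 1.70 (SE 0.15, limma adjusted p = 0.00462), a size that the added pseudocount of 1 makes small for a gene at this level.

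BHLH39, its neighbour on chromosome 3, had 5.67 and 4.94 FPKM in wild type, against 0.902 and 0.961 in atino80-5, from 80, 94, 10 and 13 reads. Its ratio of mean FPKM was 5.69 (limma adjusted p = 0.00462), and its ratio of scaled reads was 5.62 with a counting interval of 3.62 to 9.09. BHLH38 and BHLH39 lie on the same strand with 1144 bases and no other annotated gene between them. Their coding sequences were 84.8% identical with a longest shared run of 34 bases. A longer read within the coding sequence therefore cannot match both copies exactly. Untranslated bases were not compared, and whether reads were assigned to the wrong copy was not tested. The level of BHLH39 was 1.60 and 1.59 times that of BHLH38 in the wild-type libraries and 2.74 and 2.85 times in the atino80-5 libraries. These ratios did not overlap between genotypes, and with 2 against 2 libraries an exact permutation test cannot give a two-sided p under 0.33.

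BHLH100 was the most abundant of the group in wild type, at 12.2 and 10.6 FPKM, and had 1.07 and 1.42 FPKM in atino80-5, from 188, 222, 13 and 21 reads. The level in wild type was 9.16 times that in the mutant (limma adjusted p = 0.00293, 95% interval of the log2 difference -2.85 to -2.08). BHLH101 had 6.66 and 6.79 FPKM in wild type, against 1.49 and 1.30 in atino80-5, from 91, 125, 16 and 17 reads. Its fold was 4.82, the smallest of the group (limma adjusted p = 0.00448). Whether BHLH101 fell less than the other members of the group was not tested. The coding sequence of BHLH101 was 61.1% to 64.3% identical to the others, with no shared run above 13 bases, and that of BHLH100 was 75.3% identical to BHLH38 and 76.3% to BHLH39.

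Summed over the group, group Ib RNA went from 28.0 and 25.5 FPKM in the wild-type libraries to 3.79 and 4.02 FPKM in the atino80-5 libraries. Differences in the make-up of that sum were not tested. BHLH100 made up 43.4% and 41.8% of it in wild type and 28.2% and 35.3% in atino80-5, and BHLH38 went from 12.7% and 12.2% to 8.67% and 8.39%. The share of BHLH101 was 23.8% and 26.6% in wild type and 39.3% and 32.4% in atino80-5, so that it was the largest contributor in mutant replicate 1. In mutant replicate 2 BHLH100 was still the largest, and in each of these shares the genotypes did not overlap. The mutant shares rest on 4 to 21 reads a gene and library, with 16 for BHLH101 and 13 for BHLH100 in replicate 1, so counting error alone leaves their order there unresolved.

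**Figure D2:**
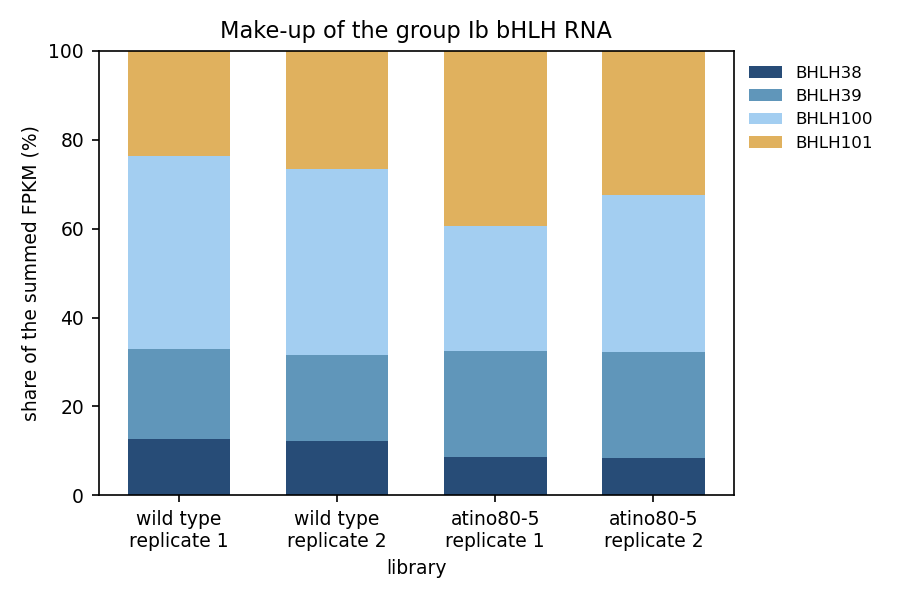
Share of each group Ib gene in the summed FPKM of the group (in %, stacked to the whole) in each of the 4 libraries. The BHLH100 band shrinks from 43.4% and 41.8% to 28.2% and 35.3%, and the BHLH101 band widens from 23.8% and 26.6% to 39.3% and 32.4%.

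The bases before the starts of the group Ib genes are shown because these genes fell together and bHLH factors bind E-boxes (CANNTG), of which the G-box (CACGTG) is a well-known form. Sequences are the 250 bases before the annotated start, 5′ to 3′ on the strand of the gene, from the RefSeq TAIR10.1 genome and annotation, with E-box letters in capitals. Both motifs read the same on either strand, and every G-box is also an E-box. The windows are chr3:21085246-21085495 for BHLH38, chr3:21087711-21087960 for BHLH39, chr2:17199455-17199704 for BHLH100 and chr5:1139634-1139883 for BHLH101, all on the minus strand and outside any other annotated gene.
BHLH38: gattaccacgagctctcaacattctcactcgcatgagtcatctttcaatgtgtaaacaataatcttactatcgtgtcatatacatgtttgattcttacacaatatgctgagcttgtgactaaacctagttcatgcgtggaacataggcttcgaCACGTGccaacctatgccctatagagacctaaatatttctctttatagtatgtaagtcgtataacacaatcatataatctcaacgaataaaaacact
BHLH39: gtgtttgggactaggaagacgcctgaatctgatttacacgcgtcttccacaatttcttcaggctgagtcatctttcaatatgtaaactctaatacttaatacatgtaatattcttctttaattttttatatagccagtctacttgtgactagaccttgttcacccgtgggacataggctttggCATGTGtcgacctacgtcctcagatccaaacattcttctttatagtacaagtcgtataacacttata
BHLH100: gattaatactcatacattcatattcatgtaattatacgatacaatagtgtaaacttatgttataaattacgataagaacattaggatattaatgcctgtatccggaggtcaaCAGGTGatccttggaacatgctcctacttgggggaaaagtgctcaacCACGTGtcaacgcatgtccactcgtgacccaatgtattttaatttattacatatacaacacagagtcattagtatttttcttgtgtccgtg
BHLH101: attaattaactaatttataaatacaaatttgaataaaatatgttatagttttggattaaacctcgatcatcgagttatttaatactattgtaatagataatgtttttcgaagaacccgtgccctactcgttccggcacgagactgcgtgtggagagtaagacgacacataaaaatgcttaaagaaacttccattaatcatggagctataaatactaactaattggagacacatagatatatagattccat

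Counting the base before the start as -1, BHLH38 held 1 G-box with its first base at -97, and BHLH100 held 1 at -91 and the E-box CAGGTG at -138. BHLH39 held the E-box CATGTG at -67 and no G-box, and BHLH101 held no E-box in its window. Of 27443 promoters of protein-coding genes in the same annotation, 6.49% held a G-box and 55.3% an E-box in a window of that length. Whether these letters go with the change of a gene was not tested, and a match of letters is a description, not a binding site.

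PYE, the bHLH gene that gives the repressor of iron movement genes, had 8.71 and 7.94 FPKM in wild type, against 3.56 and 4.50 in atino80-5. The groups did not overlap, and the level fell 2.07-fold (log2 difference -0.90, SE 0.16, limma adjusted p = 0.0327). PYE had the highest adjusted p of the 8 calls. The call ended without wild type replicate 1 (log2 difference -0.84, adjusted p = 0.194) and without wild type replicate 2 (-0.96, adjusted p = 0.0998), with differences near that of all libraries. With atino80-5 replicate 1 or replicate 2 left out, the log2 difference was -0.76 or -1.03. Such fits leave 1 mutant library, so a call there says little. With no filter on low values the limma adjusted p was 0.0561.

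ILR3, which sits above the group Ib genes and PYE, did not pass the test. It had 47.5 and 47.8 FPKM in wild type, against 55.0 and 56.4 in atino80-5, from 1426 to 2128 reads a library. Both mutant libraries were higher than both wild-type libraries by a small margin, and the difference did not pass (log2 difference 0.22, 95% interval -0.16 to 0.61, limma adjusted p = 0.396). After quantile normalisation its log2 difference was -0.04. The interval does not reach the log2 difference of -0.90 seen for PYE.

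The other group IVc genes, which encode partners of ILR3 and are named here for that family, were not called either. BHLH104 stood at 21.9 ± 2.29 and 25.0 ± 0.783 FPKM (SD, n = 2) in wild type and atino80-5, and BHLH115 at 37.4 ± 1.27 and 39.7 ± 0.548 FPKM. BHLH34 stood at 3.49 ± 0.977 and 2.62 ± 0.121 FPKM, and BHLH121, a partner from group IVb, at 16.3 ± 0.0393 and 21.0 ± 3.92 FPKM. Their limma adjusted p-values ran from 0.272 to 0.745. The log2 differences of BHLH104 and BHLH115 were 0.18 and 0.08, and turned to -0.03 and -0.13 with libraries scaled to total reads.

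BTS, whose product removes ILR3 and its relatives, was lower in the mutant. It had 22.1 and 24.0 FPKM in wild type, against 10.04 and 11.5 in atino80-5, from 2142, 3135, 764 and 1069 reads. The groups lay well apart, and the level fell 2.14-fold (log2 difference -1.03, SE 0.16, limma adjusted p = 0.0199). It had the most reads of the 8 that fell, and the counting interval of its ratio of scaled reads was 2.03 to 2.25. The call ended when either wild-type library was left out, though the log2 difference stayed at -1.09 without replicate 1 (limma adjusted p = 0.0868) and -0.97 without replicate 2 (limma adjusted p = 0.124). With atino80-5 replicate 1 or replicate 2 left out, the log2 difference was -0.94 or -1.12. Such fits leave 1 mutant library, so a call there says little.

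BTSL1, a relative of BTS that acts in the root and is named after its values were seen, had 2.49 and 2.26 FPKM in wild type, against 1.22 and 0.906 in atino80-5. It did not pass (limma adjusted p = 0.0566), and its log2 fold change in the authors' deposited table was -1.16 with an adjusted p of 0.00725. Voom called BTSL1 lower (log2 difference -1.18, voom adjusted p = 0.0217). With all libraries kept, scaling to total reads and a replicate block did so too, and the other alternatives did not.

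IMA1 encodes a short peptide that raises iron uptake. It had 38.8 and 27.0 FPKM in wild type, against 10.4 and 7.31 in atino80-5, from 271, 255, 57 and 49 reads. Its replicates were the most spread of the 10 within wild type, and still the groups did not overlap. The level fell 3.72-fold (log2 difference -1.78, 95% interval -2.36 to -1.20, limma adjusted p = 0.0142).

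IMA3, another peptide gene of the family, had 38.0 and 32.6 FPKM in wild type, against 4.21 and 6.61 in atino80-5, from 540, 624, 47 and 90 reads. Its fall was the largest of the 10 on the scale of the test, 6.52-fold as a ratio of mean FPKM (log2 difference -2.52, SE 0.22, limma adjusted p = 0.00462). IMA3 stood at 0.981 and 1.20 times the level of IMA1 in the wild-type libraries, and at 0.406 and 0.904 times in the atino80-5 libraries. Both ratios in the mutant lay below both in wild type, a difference that was not tested, and all 4 depend on the gene lengths behind the FPKM.

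IMA2, named here because it lies 1876 bases from IMA1 on chromosome 1, had 24.9 and 12.9 FPKM in wild type, against 7.76 and 3.37 in atino80-5. It did not pass (limma adjusted p = 0.0771), with the widest spread between replicates of the IMA genes, and had an adjusted p of 0.00642 in the authors' deposited table. With all libraries kept, IMA2 was called lower after quantile normalisation, scaling to total reads or removal of the gene length trend, and with a replicate block. Voom and the other alternatives with all libraries did not call it. The coding sequences of IMA1 and IMA2, 153 bases each, were 88.9% identical with a shared run of 55 bases. How reads that match both were counted is not given in the sources used here, so their separate values are uncertain. IMA1 and IMA3 shared no run above 9 bases.

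OPT3, the phloem iron transporter, was the most abundant of the regulators in every library. It had 80.9 and 85.6 FPKM in wild type, against 66.3 and 69.7 in atino80-5, from 2161 to 4791 reads a library. The genotypes did not overlap, with the mutant libraries lower, yet the test was not passed (log2 difference -0.29, 95% interval -0.69 to 0.12, limma adjusted p = 0.304). That order of libraries was common, since 28.8% of tested genes had both mutant libraries below both wild-type libraries and 33.4% had the reverse.

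The promoters of BTS and OPT3 are shown as a pair that held G-boxes, of which BTS was called lower and OPT3 was not called. The windows are chr3:6273716-6273965 on the plus strand for BTS and chr4:9250344-9250593 on the minus strand for OPT3, in TAIR10.1, with E-box letters in capitals as before.
BTS: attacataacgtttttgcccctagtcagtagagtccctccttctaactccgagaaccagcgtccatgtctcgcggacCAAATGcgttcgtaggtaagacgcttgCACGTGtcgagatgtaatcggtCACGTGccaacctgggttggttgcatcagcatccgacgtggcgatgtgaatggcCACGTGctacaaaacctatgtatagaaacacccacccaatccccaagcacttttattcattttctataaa
OPT3: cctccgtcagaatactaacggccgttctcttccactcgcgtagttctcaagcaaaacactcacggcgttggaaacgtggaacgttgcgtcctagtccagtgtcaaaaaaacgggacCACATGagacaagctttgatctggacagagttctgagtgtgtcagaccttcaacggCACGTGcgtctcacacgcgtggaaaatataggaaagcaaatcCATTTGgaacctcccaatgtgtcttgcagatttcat

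BTS held 3 G-boxes, at -146, -124 and -70, and OPT3 held 1, at -78. A link between these motifs and the changes of RNA was not tested. PYE held no E-box, ILR3 held the E-box CATATG at -197, and IMA1 and IMA3 held 2 E-boxes each and no G-box. The IMA3 window overlaps another annotated gene, AT2G30760. In total, 4 of the 10 windows held a G-box, those of BHLH38, BHLH100, BTS and OPT3. The absence of these letters says nothing of sites farther from the start.

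**Figure D3:**
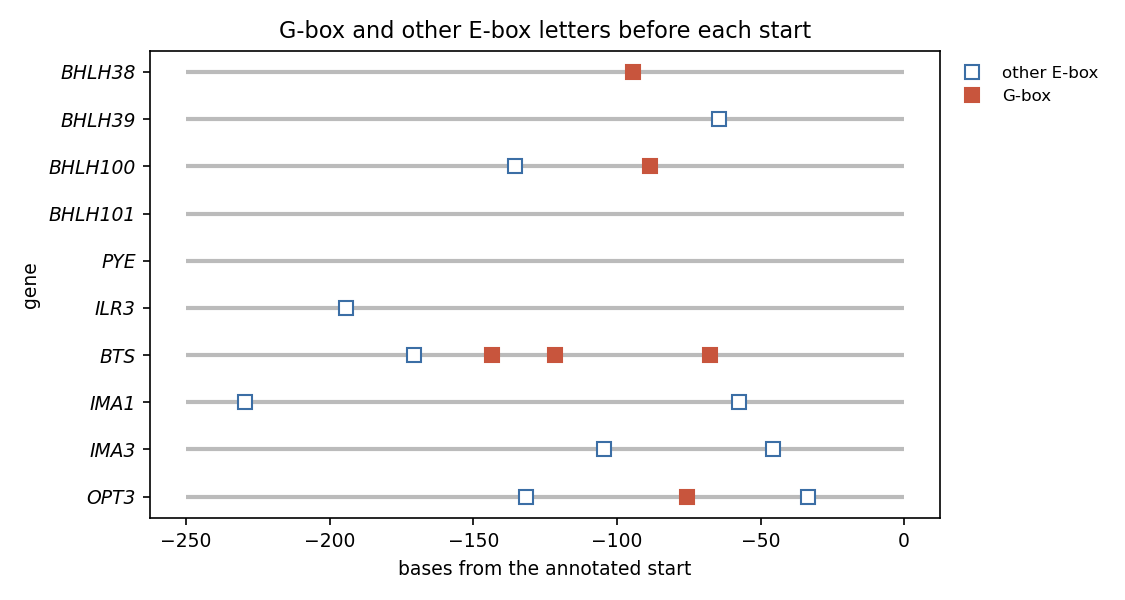
Position of G-boxes (filled) and other E-boxes (open) in the 250 bases before the annotated start of each regulator, in bases from the start. BTS holds 3 G-boxes, and BHLH38, BHLH100 and OPT3 hold 1 each.

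Limma voom, which adds a smaller offset to each read count, gave larger differences for the low genes. On the recovered reads its log2 differences were -3.17 for BHLH38 (95% interval -4.21 to -2.12), -3.15 for BHLH100 (-3.88 to -2.42) and -2.70 for IMA3 (-3.28 to -2.12). BHLH39 and BHLH101 had -2.44 and -2.24, IMA1 -1.89, BTS -1.10 and PYE -1.04. All 8 passed voom, with adjusted p-values from 0.00175 for IMA3 to 0.0217 for PYE, against 593 of 17642 genes (3.36%) called lower by voom. OPT3 and ILR3 were again not called, at -0.29 and 0.23. The intervals of BHLH38, BHLH39, BHLH100, BHLH101 and IMA3 overlapped one another, and differences among these 5 were not tested. All 5 intervals lay below those of BTS and PYE.

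**Figure D4:**
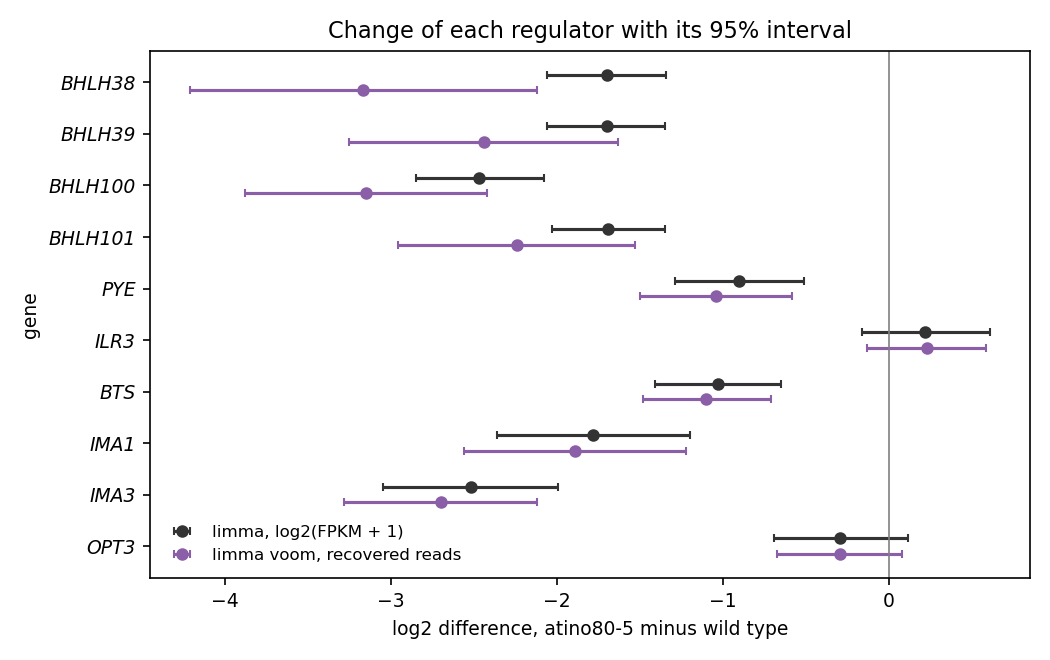
Log2 difference of each regulator, atino80-5 minus wild type, with 95% intervals, by limma on log2(FPKM + 1) in black and by limma voom on recovered reads in purple. The intervals of 8 genes lie below 0 on both scales, and those of ILR3 and OPT3 include 0.

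The authors' deposited table gave the same 8 genes as lower at an adjusted p under 0.05, against 748 of 20478 genes with an adjusted p there (3.65%), and none of the 10 as higher, against 5.85% of genes. In it the log2 fold changes ran from -3.32 for BHLH38 and -3.18 for BHLH100 to -1.04 for PYE, with adjusted p-values from 9.83e-17 for IMA3 to 0.00582 for PYE. In the authors' deposited table OPT3 had -0.29 (adjusted p = 0.416) and ILR3 0.23 (adjusted p = 0.577). Both tests read the same 4 libraries, so this is no independent support.

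By level, the order in wild type was OPT3, ILR3, IMA3, IMA1, BTS, BHLH100, PYE, BHLH101, BHLH39 and BHLH38, and only IMA3 and IMA1 overlapped between neighbours. In atino80-5 it was OPT3, ILR3, BTS, IMA1, IMA3, PYE, BHLH101, BHLH100, BHLH39 and BHLH38. There BTS and IMA1, IMA3 and PYE, and BHLH101 and BHLH100 overlapped between neighbours. This order depends on the gene length behind the FPKM, while the ratio of 1 gene between genotypes does not. The length implied by the deposited values was longer than the TAIR10.1 exon length for PYE, ILR3, BTS and OPT3, and shorter for the group Ib genes, IMA1 and IMA3. It was 6516 against 4495 bases for BTS, 2260 against 1385 for PYE and 955 against 1995 for IMA3. With FPKM scaled to the exon length, the wild-type mean of BTS was 33.4, that of IMA1 19.8, that of IMA3 16.9, that of PYE 13.6 and that of BHLH100 10.2, so BTS passed both IMA genes, IMA1 passed IMA3 and PYE passed BHLH100. On that scale in atino80-5, ILR3 at 93.5 passed OPT3 at 70.3, and PYE at 6.58 passed IMA1 at 5.34 and IMA3 at 2.59.

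Some regulators overlap another annotated gene on the opposite strand, and the strand setting of the counting is not given. BHLH38 overlaps PIP5K4 by 386 bases, which had means of 0.707 FPKM in wild type, against 1.11 in the mutant. BHLH101 overlaps GLU1 by 79 bases, and GLU1, an abundant glutamate synthase gene, had means of 108 and 99.2 FPKM and was not called. IMA3 overlaps AT2G30760 and CYP71A13, which were both under 1 FPKM in each library. ILR3 overlaps GAUT12 by 51 bases, with means of 1.78 and 1.04 FPKM, and AT5G08235, which was not analysed here. Reads of such pairs may have been counted together.

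Around these regulators, 3 root uptake genes fell, genes of iron movement changed both ways, and storage genes did not pass the test, with a median above 0. The 49 genes in 4 lists of iron genes had 42 above the minimum level, of which 6 fell and 2 rose. Over all tested genes 2.42% fell and 2.99% rose, and a count near those shares says little about a list. Their median log2 difference was -0.02, against -1.69 for the 10 regulators.

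Of 9 tested genes of root uptake and coumarins, 3 fell and none rose (median log2 difference -0.46), against 2.42% and 2.99% of all tested genes. The iron transporter gene IRT1 had 30.8 and 32.2 FPKM in wild type, against 9.56 and 9.94 in atino80-5, and the ferric reductase gene FRO2 had 6.34 and 7.09 against 1.88 and 2.40 FPKM. CYP82C4, which makes the coumarin sideretin, fell 5.16-fold, from 8.13 and 8.74 to 1.30 and 1.97 FPKM. These 3 kept their limma adjusted p under 0.05 in every alternative that tested them. AHA2, the proton pump gene of root acidification, had 103 and 119.7 FPKM in wild type, against 154 and 125 in atino80-5 and was not called. FIT, the partner of the group Ib proteins, had 3.89 and 2.99 FPKM in wild type, against 2.48 and 1.83 in atino80-5. Both mutant libraries of FIT were lower, and the difference did not pass (log2 difference -0.49, limma adjusted p = 0.155).

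Of 15 genes of iron movement in the plant, 3 fell and 1 rose (median log2 difference -0.11), against 2.42% and 2.99% of all tested genes. NAS2 and NAS4, which encode nicotianamine synthases, fell 1.90-fold and 2.60-fold, and the mitochondrial ferric reductase gene FRO3 fell 2.42-fold. Which genes of this list passed changed with the method. In the authors' deposited table NAS2 did not pass (adjusted p = 0.0661), while NAS1 and ZIF1 were lower (adjusted p = 0.0218 and 0.00482). Limma did not call NAS1 or ZIF1 (adjusted p = 0.104 and 0.0597). NAS4 and FRO3 are known targets of repression by PYE. NAS3, another nicotianamine synthase gene, went the other way, from 4.09 and 4.31 FPKM to 9.93 and 8.14 FPKM (limma adjusted p = 0.0255). Without wild type replicate 1 the limma adjusted p-values of NAS2, NAS3 and NAS4 were 0.215, 0.148 and 0.0571, at log2 differences of -0.81, 0.91 and -1.17. Without wild type replicate 2 those of NAS2, NAS3 and FRO3 were 0.195, 0.0998 and 0.0656, at -0.80, 0.97 and -1.13. With atino80-5 replicate 1 left out, the log2 differences of NAS2, NAS3, NAS4 and FRO3 were -0.77, 0.81, -1.19 and -0.94. With atino80-5 replicate 2 left out, they were -0.84, 1.07, -1.37 and -1.42. Such fits leave 1 mutant library, assumed to vary like wild type, so a call there says little.

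Of 8 tested genes of storage and iron excess, none was called by limma, against 5.41% of all tested genes. A list this short cannot be told from that share by its count. The median log2 difference was 0.57. Of the 9 with values, 6 had both mutant libraries above the wild-type libraries, an order seen in 33.4% of tested genes. NEET, which encodes an iron-sulphur protein, had 49.7 and 38.8 FPKM in wild type, against 142 and 84.7 in atino80-5 (limma adjusted p = 0.0554). FER1, the ferritin gene induced by excess iron, had 123 and 112 against 234 and 197 FPKM (limma adjusted p = 0.0592). Voom passed both, with adjusted p-values of 0.0226 and 0.027, and the authors' deposited table gave both as higher. With all libraries kept, limma without a trend also passed FER1. Quantile normalisation, scaling to total reads and a replicate block also passed NEET. Neither gene passed in the other alternatives with all libraries.

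Of the 10 tested genes among the other iron regulators, 1 rose and none fell (median log2 difference -0.07), against 2.99% and 2.42% of all tested genes. BTSL1 and IMA2 were called lower in some alternatives, as given above. BHLH20, also called NAI1 and a regulator of ER bodies, rose from 5.32 and 6.07 FPKM to 13.2 and 11.4 FPKM (limma adjusted p = 0.0224). That call ended too without a wild-type library, with limma adjusted p-values of 0.166 without replicate 1 and 0.0705 without replicate 2, at log2 differences of 0.90 and 1.07 against 0.99 with all libraries.

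**Figure D5:**
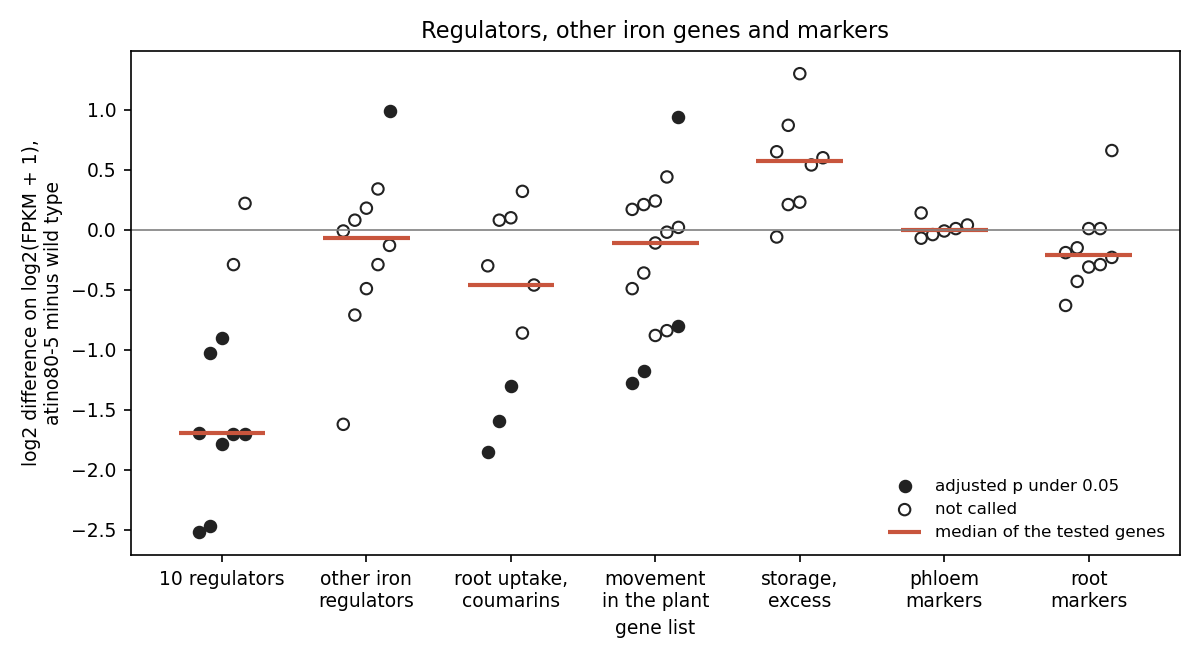
Log2 difference on log2(FPKM + 1), atino80-5 minus wild type, for every tested gene of each list, filled where the adjusted p was under 0.05, with the median as a bar. The 10 regulators have a median of -1.69, root uptake genes -0.46, storage genes 0.57, phloem markers near 0 and root markers -0.21.

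The genes whose values over the 4 libraries lay nearest to the mean profile of the group Ib genes were AOX1D, AT3G46080, ORG1, AT2G41730 and EXPA10. Nearness was the Euclidean distance between log2(FPKM + 1) profiles, each set to its wild-type mean, over 17632 genes and 4 libraries, and ran from 0.06 to 0.18. The mean profile itself stood at -1.91 and -1.87 in the atino80-5 libraries. With this measure any gene with a fall of that size ranks high. ORG1, a gene first named with BHLH38 (ORG2) and BHLH39 (ORG3) as a target of the factor OBP3, had 43.9 and 45.4 FPKM in wild type, against 11.4 and 12.2 in atino80-5. AOX1D, an alternative oxidase gene, had 3.65 and 3.31 FPKM against 0.150 and 0.205 FPKM. EXPA10, an expansin gene, had 114 and 107 FPKM against 32.5 and 30.3 FPKM. AT3G46080, annotated as a zinc finger gene, fell 5.18-fold, and AT2G41730, annotated as a calcium-binding site protein gene, fell 4.19-fold.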

How the data were processed

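RNA-seq values of 4 libraries were analysed, 2 of wild type and 2 of atino80-5, grouped by the genotype in the labels. The authors deposited FPKM per library and a DESeq2 table with a mean normalised signal, log2 fold changes with standard errors, a test score, p-values and adjusted p-values, per the file headers. HISAT2, SAMtools, cutadapt, FastQC, deepTools, featureCounts and DESeq2 stand in the submitters' processing notes, with no version, beside the TAIR10 build. The sources used here give no strand setting, annotation release or gene filter.

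Deposited FPKM and mean signal together gave whole reads for 100% of values (tolerance 0.01) and size factors of 0.9995, 1.3479, 0.7849 and 0.9574. The 17642 genes whose mean reached 1 FPKM were tested two-sided on log2(FPKM + 1), with genotype alone in the model and a mean-variance trend, in limma 3.58.1 (R 4.3.3). P-values were Benjamini-Hochberg adjusted over all of them. The pseudocount understates changes of low genes. The code was tested on simulated reads. Folds are ratios of mean FPKM. Counting intervals are exact (Clopper-Pearson, 95%).

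The 10 members, gene lists and tests were chosen with earlier results of these data known, so no list was tested as a set. Named by rule are the members, INO80, the called genes of each list or the 2 with the smallest p, and the 5 genes nearest to the group Ib profile. FIT, AHA2, IMA2, BTSL1, NAS1, ZIF1, BHLH34, BHLH104, BHLH115, BHLH121 and single root markers were named by family or after their values were seen. Coordinates and sequences are those of the RefSeq reference, TAIR10.1, and were not combined with positions from the deposited files, which hold none. Alternatives were other pseudocounts, filters, scalings and limma settings, voom, a replicate block and each library left out.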

Additional observations from a re-analysis of the deposited data

How the results depend on the processing

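BHLH38, BHLH39, BHLH100, BHLH101, IMA1 and IMA3 were called lower in each alternative that tested them. The number of regulators called was 8, and 5 of the 7 left with a minimum of 5 FPKM, which removes BHLH38, BHLH39 and BHLH101; it was 6 to 8 with a library left out and 7 with no filter. ILR3 turned to -0.04 after quantile normalisation. BHLH104 turned to -0.0049 there and to -0.03 scaled to total reads, and BHLH115 to -0.15 and -0.13, and to -0.0038 with the gene length trend removed.

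Over all genes, 955 calls (427 lower, 528 higher) became 572 (210 lower) with a minimum of 5 FPKM and 1617 (1133 lower) scaled to total reads, where the median of all genes moved from 0.03 to -0.16 and 70.1% of calls were lower, against 44.7%. With the replicate block they became 1985 (870 lower, 1115 higher). Leaving out a library gave 443 to 6896 (181 to 3001 lower, 262 to 3895 higher). The high counts are those without atino80-5 replicate 2, a fit with 1 mutant library that is assumed to vary like wild type. With libraries scaled by total reads, the chi-square per degree of freedom between replicates was 12.5 in wild type and 38.6 in atino80-5. By that measure the mutant libraries differed more, while the main fit shared a spread between the genotypes. The 8 calls in the iron lists (6 lower, 2 higher) became 13 (10 lower) scaled to total reads and 14 (11 lower) with the replicate block. With voom 4 were higher. Without 1 library they ranged from 4 to 24 (4 to 14 lower, 0 to 10 higher). The cause of these shifts was not tested.

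The replicate numbers share nothing that the labels state, and deviations of same-numbered libraries correlated at -0.03 over tested genes. The block left 8 of the 10 regulators called. Depth limits BHLH38 and BHLH39 most, with 4 to 13 reads in each mutant library.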

Other observations

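Below the minimum level for testing, other genes of the iron uptake pathway had few reads in either genotype. MYB10, a root transcription factor gene of the iron response, had 13 and 22 wild-type reads, against 2 and 1 in the mutant libraries, giving a scaled ratio of 8.66 with an exact 95% counting interval of 2.73 to 44.0. S8H, which encodes the enzyme that makes the coumarin fraxetin, had 22 and 45 reads in the wild-type libraries, against 4 and 3 in the mutant, giving a scaled ratio of 7.10 with an interval of 3.26 to 18.3. The authors' deposited table gave S8H a log2 fold change of -2.78 (adjusted p = 0.0211) and MYB10 one of -3.07 (adjusted p = 0.0967). MYB72, the relative of MYB10, had 3 and 2 wild-type reads, against 1 in each mutant library, too few to show a difference at this depth. MYB10, S8H and MYB72 were named after their values were seen. Of the other genes of the iron lists under the minimum, BHLH19 had 8 and 3 wild-type reads, against 1 and 0 in the mutant. BHLH18 had 2 and 1 against 0 and 1, and VIT1 had 4 and 1 against 3 and 2. BHLH25 had 1 and 0 wild-type reads, against 0 and 5 in the mutant.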
